A study of Mus musculus with 2 samples.

Results

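The conventional CD4 T cells of the metastatic lymph node were 519 of the 11617 cells in the lymph node library, and of 24044 cells in both libraries. They were chosen by their UMI counts of a few lineage genes, where a UMI (unique molecular identifier) marks 1 captured RNA molecule. A cell entered with over 200 detected genes, at most 5% of UMIs in mitochondrial genes, at least 2 UMIs of Cd3d, Cd3e and Cd3g together and at least 1 UMI of Cd4. It also had 0 UMIs of Cd8a, Cd8b1, Foxp3 and Trdc, at most 1 UMI of Cd79a and Cd79b together, and under 5 UMIs of Krt8 and Krt18 together. These genes define the population, so their levels are a description and no result rests on them.

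The series profiled female C57BL/6J mice that carried tumours of EO771-HEVM3, a derivative of the mouse breast cancer line EO771 selected over repeated passages in mice for spread to the lung through lymph node blood vessels. Primary tumours and the paired lymph nodes of 6 mice were digested with enzymes, lysed to remove red cells, and run as 1 droplet library per tissue. Both groups carry the same tumour, no library of tumour-free mice was analysed here, and the age at collection is not given in the sources used here. Each library is 1 pool, so the spread between mice was not measured, no p-value can be given, and the intervals printed cover counting error only.

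Conventional CD4 T cells are the helper arm of adaptive immunity. Naive cells circulate through lymph nodes, which they enter across high endothelial venules with the help of the chemokine receptor CCR7 and leave along a sphingosine-1-phosphate gradient read by S1PR1. On meeting antigen they express costimulatory receptors of the TNF receptor family, and some become follicular helper, Th1, Th2 or Th17 cells with their own transcription factors and cytokines, while regulatory T cells form a separate lineage set by Foxp3.

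The lymph node library held 122207852 UMIs and the primary tumour library 173317475, over the same 22620 genes. Of 11617 lymph node cells, 11269 passed the cell limits, and 4191 of those had at least 2 CD3 UMIs. Among these 4191 CD3 cells, 669 had Cd4 without Cd8 UMIs, 1573 had Cd8 without Cd4, 72 had both and 1877 had neither. Requiring 0 Foxp3 UMIs then left 605 cells, 0 Trdc left 592, the limit on the B cell receptor genes Cd79a and Cd79b left 527 and the keratin limit left 519. The 519 cells made up 4.47% of the lymph node library (exact Clopper-Pearson 95% interval 4.10% to 4.86%) and 4.61% (4.23% to 5.01%) of the cells within the limits. In the primary tumour library 40 of 12427 cells passed the same rule, or 0.322% (0.230% to 0.438%), too few for a comparison of genes under the minimum of 50 cells used here. The libraries shared 47 cell barcodes, and 1 of them belonged to a chosen lymph node cell.

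The chosen cells held 1872102 UMIs, from 863 to 74447 per cell with a median of 2679, and a median of 1125 detected genes. Cd4 itself was sparse, with exactly 1 UMI in 377 of the 519 cells, 2 in 105 and 3 or more in 37. Because a single Cd4 molecule decided entry for most cells, the 1337 lymph node CD3 cells with neither Cd4 nor Cd8 UMIs, at a median of 2670 UMIs, can hold CD4 cells in which Cd4 was not captured. The comparison populations under the same limits were 1249 CD8 cells (median 3770 UMIs), 57 cells with a Foxp3 UMI and Cd4 (median 4466 UMIs), called regulatory cells here, and 4485 B cells (median 1837 UMIs).

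At each limit of the rule the cells just inside and just outside had the following levels, given as CPM, the UMIs of a gene scaled to a sum of 1000000 UMIs over the cells. The 80 cells with exactly 2 CD3 UMIs had Trac, the T cell receptor alpha constant gene, at 235 CPM, and the 48 cells left out with 1 CD3 UMI had it at 401 CPM. The 377 cells with 1 Cd4 UMI had Tnfrsf4, which encodes the costimulatory receptor OX40, at 213 CPM, the 142 cells with 2 or more at 638 CPM, and the 1337 left out with none at 138 CPM. Tnfrsf4 also differed by CD3 UMIs, at 393 CPM in cells with 3 or more, 65.8 CPM with 2 and 112 CPM with 1, and Trac by Cd4 UMIs, at 478 CPM with 2 or more, 339 CPM with 1 and 299.6 CPM with none. Among cells with 1 Cd79a or Cd79b UMI, 11 in number, Cd74 stood at 499 CPM, and among the 63 left out with 2 or more it stood at 5207 CPM.

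Most, but not all, of the chosen cells carried the genes of the label. Trac was found in 318 of 519 cells, Trbc2 in 465 and Trbc1 in 263, and 19 cells had neither beta constant gene. The beta constant genes are near-identical copies, so the division of reads between them is uncertain. The pan-leukocyte gene Ptprc was found in 464 cells. Defining markers of other cells were at or near 0: Csf1r, Itgax and Flt3 of myeloid and dendritic cells had 0 UMIs, the B cell gene Ms4a1 had 4, and the innate lymphocyte genes Ncr1 and Zbtb16 had 1 UMI each. The whole lists held more, with 170 UMIs of 10 myeloid and dendritic genes in 26 cells (90.8 CPM) and 97 UMIs of 7 cancer cell genes in 85 cells (51.8 CPM), against 141 and 44.2 CPM in CD8 cells. The myeloid and dendritic genes stood at 58.7 CPM without the cells with Cdh5, and the part of these lists in the results was not tested. At least 1 UMI of the 10 B cell genes was found in 248 cells, and together these genes stood at 356 CPM in the chosen cells, 518 in CD8 cells, 1487 in regulatory cells and 58586 in B cells.

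Among the 519 cells, 4 went against the label. They had 8 to 19 UMIs of Cdh5, the gene of the endothelial junction protein VE-cadherin, while the other 515 cells had 3 Cdh5 UMIs in all and at most 1 per cell. These 4 were the 4 largest cells, with 32880 to 74447 UMIs, and together held 218785 UMIs, or 11.7% of all UMIs of the population. They carried 4 Ptprc and 1 Trac UMIs in all. The third largest held 164 UMIs of Glycam1, 175 of Chst4 and 274 of Fut7, genes expressed in the high endothelial venule. By contrast, the 8 next largest cells, with 10356 to 20366 UMIs, had 3 to 17 Trac and 4 to 26 Ptprc UMIs each. With the limit of at least 3 Cdh5 UMIs, chosen after seeing the data, the CD8 cells held 3 such cells (3.29% of UMIs), the regulatory cells 0 and the CD3 cells with neither co-receptor 7 (9.94%). The main counts are given with and without these cells.

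**Figure D1:**
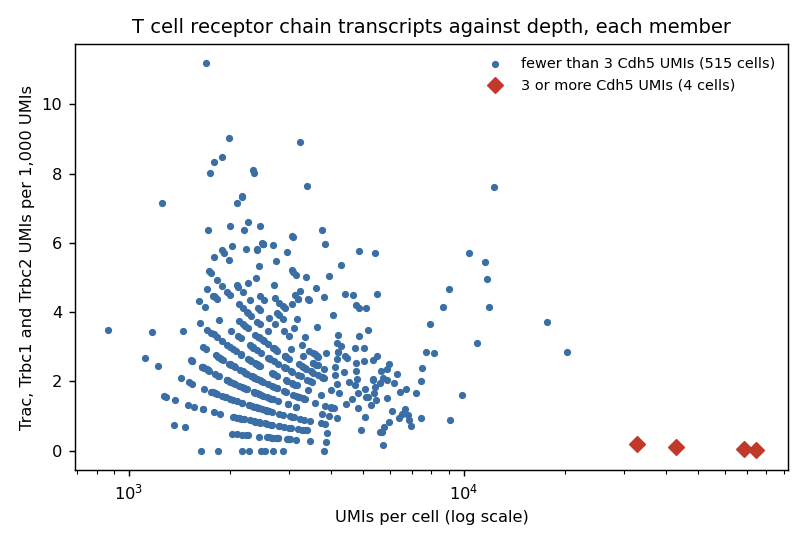
Each point is 1 of the 519 lymph node conventional CD4 T cells, with its UMIs on a log scale on the x axis and its Trac, Trbc1 and Trbc2 UMIs per 1000 UMIs on the y axis, and red diamonds mark the 4 cells with at least 3 Cdh5 UMIs. The red diamonds are the 4 deepest cells, from 32880 to 74447 UMIs, and lie near 0 on the y axis.

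Ribosomal protein genes dominated the most abundant RNAs of the conventional CD4 T cells. The leading gene was Tpt1 at 12456 CPM, followed by Rps24 at 10941 CPM and Rpl13 at 9541 CPM, and 8 of the 10 leading genes encode ribosomal proteins. Tmsb4x, which encodes an actin-binding peptide, stood at 9080 CPM. Ribosomal protein genes took 35.3% of UMIs, against 42.6% in CD8 cells and 30.5% in regulatory cells.

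The T cell receptor complex and its costimulators were at levels close to or above those of CD8 cells. Genes with at least 100 UMIs in both populations together were compared as log2 ratios of CPM, with 0.5 added to each sum, and a gene was counted when past 2-fold. Of 6004 genes, 203 (3.38%) were higher and 64 (1.07%) lower in CD4 cells, with a median ratio of 0.19. Without the cells with Cdh5 in either population, 152 of 5666 (2.68%) were higher and 75 (1.32%) lower, with a median of 0.17. Centred on the median gene, 129 were higher and 104 lower, so the excess of higher genes depends on the scaling. Of the 9 genes of the receptor complex, 1 was past 2-fold and higher, none lower, and the median was 0.63. That gene was Cd5, an inhibitory co-receptor whose level is known to follow signal strength, at 181 CPM in CD4 and 77.7 CPM in CD8 cells (log2 ratio 1.22, interval 1.01 to 1.43). The costimulatory receptor Cd28 stood at 379 against 208 CPM (0.87, 0.73 to 1.00) and passed 2-fold only without the cells with Cdh5, when the list count became 2. Trac stood at 381 against 246 CPM. Of 12 genes of proximal receptor signalling, such as Lck, Zap70 and Lat, none passed 2-fold in either direction, with a median of 0.21. Without the cells with Cdh5, Lcp2, an adaptor of receptor signalling, passed and was higher, and the median was 0.33.

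Variable segments of the receptor beta chain were caught in few cells by this 3' assay. A Trbv UMI was present in 55 of 519 cells (10.6%), from 18 of the 35 Trbv genes listed. The most frequent, Trbv2, was found in 8 cells.

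Lineage factors split into those shared with CD8 cells and those higher in CD4 cells. Of 12 genes on the list 11 had enough UMIs, 3 were past 2-fold and higher, none lower, and the median was 0.41. Gata3, a zinc finger factor needed for the CD4 lineage and for Th2 cells, stood at 42.7 against 14 CPM (1.61). Tox, which is required for CD4 development in the thymus, stood at 122 against 41.3 CPM (1.57), and Runx1 at 81.7 against 29.7 CPM (1.46). Zbtb7b, which encodes ThPOK, the factor that commits cells to the CD4 fate, had 16 UMIs in 15 cells and too few in both populations to be counted.

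Naive and homing genes stood at like summed levels in conventional CD4 and CD8 cells and at a lower level in regulatory cells. The 16 genes together stood at 4634 CPM (exact Poisson 95% interval 4537 to 4732) in conventional CD4 T cells, 4695 in CD8 cells and 2218 in regulatory cells. Without the 4 cells with Cdh5 the CD4 level was 5106 CPM. Against CD8 cells 0 of the 16 genes were past 2-fold and higher and 1 was lower, with a median of 0.07 against 0.19 for all genes. The lower gene was Dapl1, at 43.3 CPM in CD4 and 105 CPM in CD8 cells (-1.27).

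Ccr7, the receptor for the chemokines that line high endothelial venules and the T cell zone, was found in 349 of 519 cells. Its level was 634 CPM (598 to 671), next to 667 CPM in CD8 cells and 465 CPM in regulatory cells. S1pr1, the egress receptor, was found in 303 cells at 362 CPM (335 to 390), against 291 and 169 CPM. S1pr1 was thus highest in the conventional CD4 cells of these 3 populations, whereas Ccr7 was close to its CD8 level. Klf2, a factor that drives S1pr1, stood at 457 CPM, below CD8 cells at 571 CPM and above regulatory cells at 271 CPM. Selplg, which encodes the adhesion ligand PSGL-1, was at 140 CPM against 281 CPM in CD8 cells (-1.0), the 1 of 14 genes of venule entry and egress past 2-fold, and it was within 2-fold without the cells with Cdh5 (-0.87). Against regulatory cells 13 of these genes could be compared, S1pr1 was higher, and S1pr4 (39.0 against 80.3 CPM, -1.06) and the integrin gene Itgb7 (97.2 against 271 CPM, -1.48) were lower, of which S1pr4 was within 2-fold without the cells with Cdh5. Ccr7 is also expressed in B cells, at 535 CPM, so a share of cells with a UMI does not by itself mark T cells.

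Transcription factors of naive cells were near their CD8 levels. Satb1, a chromatin organiser, stood at 986 CPM (942 to 1032) against 1067 in CD8 cells, Lef1 at 333 against 398, and Tcf7 at 241 against 182. The cytokine receptor Il7r, which sustains naive and memory cells, stood at 386 against 377 CPM (0.03, -0.09 to 0.15). Igfbp4 was found in 137 cells, at 160 against 85.5 CPM (0.91).

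Against regulatory cells the same naive list was higher. Of 3073 genes with enough UMIs, 205 (6.67%) were higher in conventional CD4 cells and 191 (6.22%) lower, with a median of -0.01. Without the cells with Cdh5, 204 of 2740 (7.45%) were higher and 258 (9.42%) lower. Of the naive genes 15 could be compared, and 9 of them were past 2-fold and higher, none lower, with a median of 1.34, or 1.48 without the cells with Cdh5. Igfbp4 had the largest difference, at 160 against 19.4 CPM (2.95, 1.99 to 4.37). Satb1 stood at 986 against 260 CPM (1.91), Lef1 at 333 against 91.4 (1.85), Tcf7 at 241 against 69.2 (1.78), and S1pr1 at 362 against 169 (1.09, 0.72 to 1.5). The receptor signalling gene Themis (1.97) was also higher, while Ptprcap was lower (-1.27). The regulatory population was small, deeper and richer in cycling genes, at 6011 CPM against 2319 CPM, and it carried more B cell UMIs, as given above, whose part in these ratios was not tested.

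**Figure D2:**
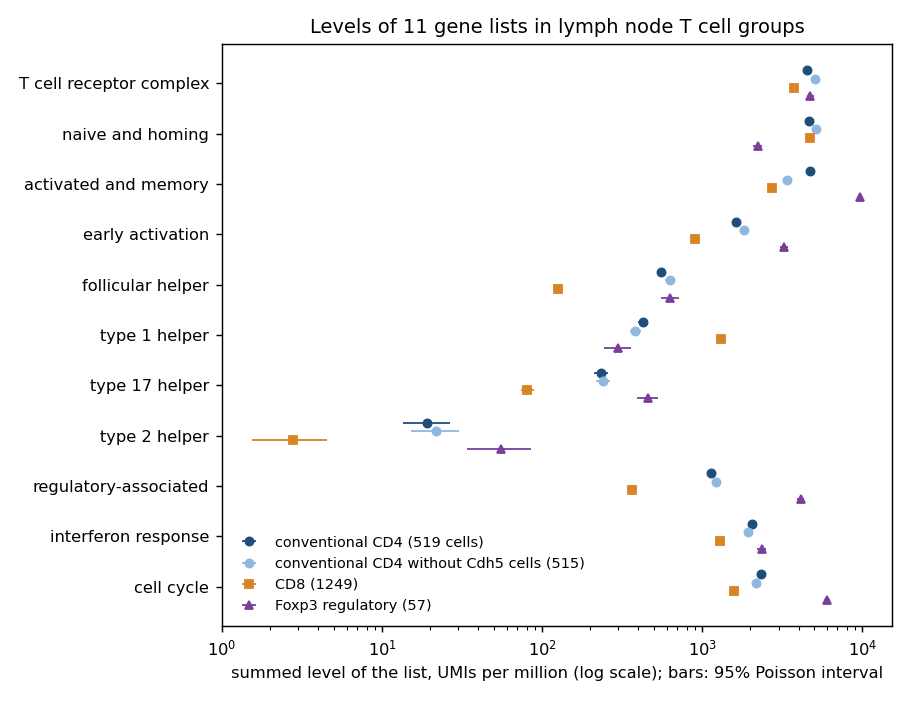
Summed levels of 11 gene lists on a log scale in CPM, with 95% Poisson intervals as bars, for the lymph node T cell populations. The naive list lies at 4634 in conventional CD4 and 4695 in CD8 cells and at 2218 in regulatory cells, whereas the activated list runs from 2727 in CD8 cells to 4712 in conventional CD4 and 9629 in regulatory cells.

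As sums over cells, genes of activated and memory cells were higher in conventional CD4 than in CD8 cells. A small number of deep cells, the 4 with Cdh5 among them, held much of the sum. The 14 genes together stood at 4712 CPM (4614 to 4811), against 2727 CPM in CD8 and 9629 CPM in regulatory cells. Without the cells with Cdh5 the CD4 level was 3367 CPM, and the mean over single cells, which gives each of the 519 cells the same weight, was 2847 CPM, next to 2083 CPM in CD8 cells on the same scale. Of the 8821 UMIs, 5077 lay in the 23 cells of the deepest subcluster described further on, which includes the 4 cells with Cdh5. Another subcluster, of 139 cells at a median of 3067 UMIs, held 2497 of them at 5175.5 CPM. The chosen cells outside the deepest subcluster stood at 2547 CPM. CD8 cells were not divided in this way, so their 2727 CPM keeps their own deep cells. Against CD8 cells 6 of 14 genes were past 2-fold and higher, none lower, with a median of 0.71. Without the cells with Cdh5 the count was 3, with a median of 0.45. Those 3 were S100a4, a calcium-binding protein of memory cells (246 against 60.4 CPM, 2.03, 1.82 to 2.24), Itgb1, an integrin beta chain (192 against 68.3 CPM, 1.49), and Cd44, the hyaluronan receptor that marks antigen-experienced cells (101 against 36.7 CPM, 1.46). The levels of Lgals1, Vim and S100a6 moved from 745 to 362 CPM, from 620 to 299 CPM and from 788 to 383 CPM when those cells were left out. Against regulatory cells none of the 14 was past 2-fold and higher and 5 were lower, or 10 without the cells with Cdh5.

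Over all chosen cells, the early activation genes past 2-fold against CD8 cells encode costimulatory receptors. Of 15 early activation genes 10 had enough UMIs against CD8 cells, and 3 were past 2-fold and higher (Tnfrsf4, Icos and Tnfrsf9), none lower, with a median of 0.78. Without the cells with Cdh5, Batf and Tnfrsf18 also passed, for a count of 5. Against regulatory cells 1 of 10 was higher (Egr1) and 5 were lower, or 4 without the cells with Cdh5. Tnfrsf4 lies on chromosome 4 (chr4:156013843-156016612 in GRCm38, plus strand). It was found in 158 of 519 conventional CD4 cells, of which 50 had 1 UMI, 25 had 2 and 83 had 3 or more, up to 22. Its level was 342 CPM (316 to 370), against 23.4 CPM in CD8 cells (3.87, 3.59 to 4.16) and 1251 CPM in regulatory cells (-1.87, -2.05 to -1.69). The detected share was 30.4% of CD4 and 3.84% of CD8 cells, and with every cell thinned to 1000 UMIs, which left out 1 conventional CD4 cell, 18.3% and 1.52%. In B cells, which do not ordinarily use the gene, the share was 0.691%, or 0.254% after thinning. The pooled level of conventional CD4 cells thus lay between those of CD8 and regulatory cells, while single cells differed widely in their UMIs. Because Tnfrsf4 is also high in regulatory cells, and a cell with Foxp3 RNA can show 0 Foxp3 UMIs at a median of 2679 UMIs, the part of undetected regulatory cells in it was not tested.

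Icos, a costimulatory receptor of helper cells, followed the same order, at 126 CPM in CD8, 370 CPM (343 to 399) in conventional CD4 and 545 CPM in regulatory cells. Tnfrsf9, the gene of 4-1BB, stood at 20.8, 55.0 and 382 CPM, and Tnfrsf18, the gene of GITR, at 72.8, 139 and 360 CPM. Each of these 4 receptors was thus lowest in CD8 and highest in regulatory cells. Cd40lg, the ligand by which helper cells license B cells and dendritic cells, was rare, with 36 UMIs in 30 conventional CD4 cells.

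Tnfsf8, which encodes CD30 ligand, did not follow the regulatory cells. The gene lies on the minus strand of chromosome 4 (chr4:63831308-63861347, GRCm38). It was found in 104 conventional CD4 cells at 233 CPM (212 to 256), against 16.0 CPM in CD8 cells (3.85, 3.53 to 4.21) and 60.9 CPM in regulatory cells (1.90, 1.32 to 2.62). The CD3 cells with neither co-receptor had it at 43.5 CPM. Conventional CD4 cells therefore had the highest Tnfsf8 level of the 4 T cell populations. Of the 104 cells with Tnfsf8, 76 also had Tnfrsf4, while 82 cells had Tnfrsf4 alone, 28 had Tnfsf8 alone and 333 had neither. Tnfsf11, the gene of RANK ligand, was likewise highest in conventional CD4 cells, at 55.0 CPM, against 12.5 CPM in CD8 cells (2.13) and 5.54 CPM in regulatory cells (3.0, 1.42 to 6.38, from 2 UMIs).

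Of 17 cytokine and ligand genes, 7 had enough UMIs against CD8 cells, of which 3 were past 2-fold and higher (Tnfsf8, Tnfsf11 and Ifng) and 2 lower (Ccl5 and Xcl1). Against regulatory cells 5 could be compared, and 3 were higher (Tnfsf11, Ccl5 and Tnfsf8), none lower. Il2, the growth factor of activated T cells, had 10 UMIs in 6 conventional CD4 cells. Il21 had 8 UMIs in 5 cells, and Il10 had 19 UMIs in 8 cells with 0 in CD8 cells. Ltb, the gene of lymphotoxin beta, was the widespread ligand, in 228 cells at 217 CPM.

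**Figure D3:**
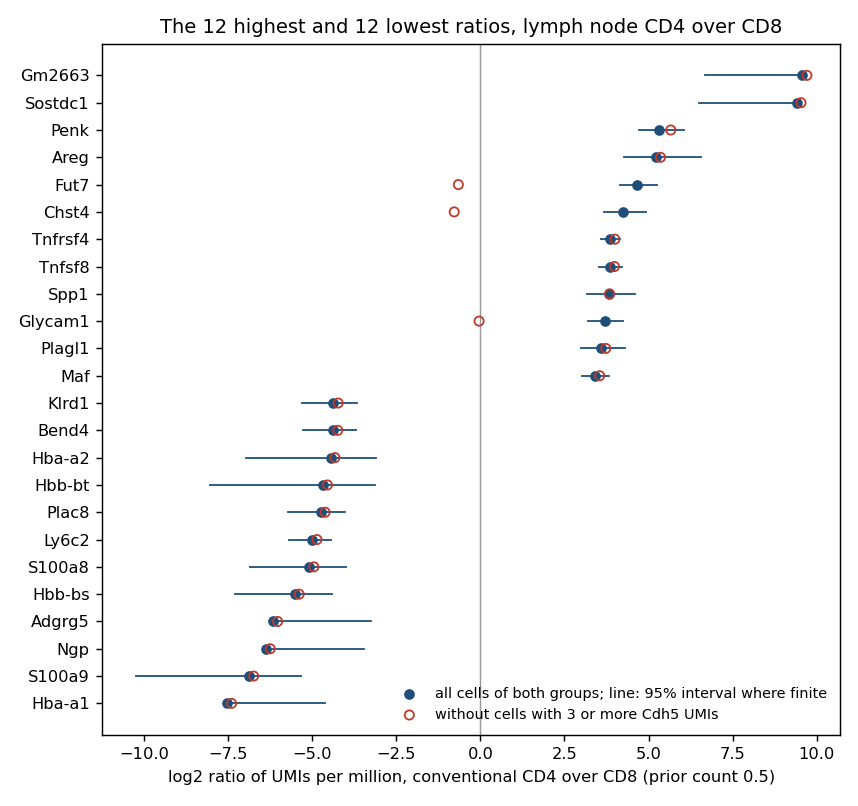
The 12 highest and the 12 lowest log2 ratios of CPM, conventional CD4 over CD8 cells of the lymph node, with lines for 95% counting intervals where finite and open red circles for the ratio without cells with at least 3 Cdh5 UMIs; points of genes with 0 UMIs in 1 population depend on the prior count of 0.5. Fut7, Chst4 and Glycam1 move from above 3.5 to -0.65, -0.78 and -0.04 without those cells, while the points of Tnfrsf4, Tnfsf8 and Maf stay above 3.

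Summed over the list, follicular helper genes were higher in conventional CD4 than in CD8 cells. The receptor and the factors that define follicular helper cells were sparse. Together the 12 genes stood at 554 CPM (521 to 589), against 126 CPM in CD8 and 631 CPM in regulatory cells. Against CD8 cells 6 had enough UMIs, 4 were past 2-fold and higher, none lower, and the median was 1.90. Maf, a factor of IL-21 and IL-4 production (chr8:115682942-115707794, minus strand, GRCm38), was found in 94 cells at 132 CPM against 12.5 CPM (3.40, 3.01 to 3.81). Izumo1r, the gene of folate receptor 4, was found in 136 cells at 146 against 23.0 CPM (2.67), and Sh2d1a, the gene of the adaptor SAP needed for help to B cells, in 112 cells at 101 against 46.0 CPM (1.13).

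Sostdc1, a secreted antagonist of BMP and Wnt signals, had 116 UMIs in 25 conventional CD4 cells, with at most 13 in a cell, and 0 UMIs in the 1249 CD8, 57 regulatory and 4485 B cells. Its level was at least 112-fold higher than in CD8 cells and at least 7.46-fold higher than in regulatory cells, counted against a floor of 3 UMIs in each of those populations. The gene lies at chr12:36314139-36318452 on the plus strand of GRCm38. The classical genes of follicular helper cells were present at few UMIs, with Bcl6 at 51 in 40 cells, Pdcd1 at 43 in 25, Cxcr5 at 6 in 5 and Ascl2 at 0. Against regulatory cells 4 of the 12 could be compared, Sostdc1 was past 2-fold and higher, and none was lower. Maf and Izumo1r were each higher in regulatory cells, at 185 and 202 CPM, within 2-fold.

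The cytokines of other helper fates had few UMIs, whereas the lists as wholes were found in more cells. A UMI of the 10 Th1 genes was present in 116 cells, at 426 CPM together, and a UMI of the 10 Th17 genes in 161 cells, at 233 CPM. Among Th2 genes, none of 7 had enough UMIs against CD8 cells, with Il4 at 2 UMIs, Il13 at 1 and Il5 at 0 in conventional CD4 cells. The Th17 cytokines Il17a and Il17f had 0 UMIs, and the 6 Il22 UMIs came from 1 cell. Rora, a factor shared by Th17 and other T cells, was found in 141 cells at 181 CPM, against 57.1 CPM in CD8 (1.66) and 388 CPM in regulatory cells. Of 10 Th1 genes 6 had enough UMIs, with 2 higher (Ifng and Cxcr3) and 2 lower (Ccl5 and Nkg7). Ifng had 65 UMIs in 22 conventional CD4 cells, at 34.7 against 14.7 CPM (1.24, 0.74 to 1.73), while the Th1 factor Tbx21 had 8 UMIs in 7 cells. Ccl5, a chemokine of effector cells, stood at 263 against 943 CPM (-1.84), and 161 of its 492 UMIs came from 1 cell, which was not a cell with Cdh5. It had 328 UMIs at 198 CPM (-2.27), and the Th1 list stood at 382 CPM, without the cells with Cdh5. Nkg7, a cytotoxic granule gene, stood at 34.2 against 255 CPM (-2.89).

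As a summed list, genes shared with regulatory cells stood between CD8 and regulatory cells. The 13 genes of that list stood at 1139 CPM in conventional CD4, 365 CPM in CD8 and 4139 CPM in regulatory cells. Of 6 that could be compared with regulatory cells, all 6 were past 2-fold and lower, with and without the cells with Cdh5, and the median was -1.87. Against CD8 cells 3 of 6 were higher (Tnfrsf4, Capg and Ctla4) and 1 was lower, while 4 were higher without the cells with Cdh5. The lower gene, Itgae, which encodes the alpha chain of CD103, was below both populations, at 7.48 CPM from 14 UMIs against 28.0 CPM in CD8 (-1.86) and 22.1 CPM in regulatory cells. Ikzf2, the gene of Helios, stood at 168 against 983 CPM in regulatory cells (-2.55, -2.77 to -2.32) and 111 CPM in CD8 cells. Ctla4, the inhibitory receptor for CD80 and CD86, was found in 138 conventional CD4 cells at 198 CPM, against 725 CPM (-1.88) and 68.9 CPM (1.52). Il2ra, the alpha chain of the IL-2 receptor, had 55 UMIs in 27 cells.

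The highest genes in the comparison with CD8 cells included several carried by few cells. By the rule for named genes, Gm2663 led with 131 UMIs in 10 cells, 87 of them in 1 cell, and 0 in CD8 cells (at least 127-fold higher). Penk, the gene of the opioid precursor proenkephalin (chr4:4133531-4138819, minus strand, GRCm38), had 310 UMIs in 28 cells, 80 of them in 1, against 22 UMIs in 9 CD8 cells (5.32, 4.73 to 6.05). Areg, a growth factor of the EGF family linked to tissue repair, had 109 UMIs in 35 cells against 8 UMIs in 5 CD8 cells (5.22, 4.27 to 6.55). Plagl1, a zinc finger factor, had 110 UMIs in 38 cells (3.60), and Spp1 had 104 UMIs in 17 cells, 59 of them in 1 (3.82). Fut7, Chst4 and Glycam1 also ranked among the 12 highest, with 274 of 281, 175 of 180 and 164 of 176 UMIs in 1 cell with Cdh5, and their ratios were -0.65, -0.78 and -0.04 without such cells. The difference from CD8 cells in these 3 venule genes was thus set by 1 cell, whereas Penk, Areg and Plagl1 were spread over 28 to 38 cells.

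The genes lowest against CD8 cells were of 2 kinds. Ly6c2 (23 against 2166 UMIs, -4.99), Plac8 (13 against 1050, -4.75), Bend4 (15 against 933, -4.38) and Klrd1 (14 against 868, -4.37) were found in 483 to 569 of the 1249 CD8 cells. Adgrg5 had 0 UMIs in conventional CD4 cells and 103 in 97 CD8 cells, at least 11.8-fold lower. The other 7, the globin genes Hba-a1, Hba-a2, Hbb-bs and Hbb-bt and the granulocyte genes S100a8, S100a9 and Ngp, came almost entirely from single CD8 cells, such as 724 of 730 Hbb-bs UMIs and 815 of 848 S100a9 UMIs. The first 4 genes were thus spread over many CD8 cells, Adgrg5 over fewer, and the other 7 were not.

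Among the 8 highest genes against regulatory cells, all at 0 UMIs in the latter, Sostdc1 and Gm2663 were named above. The others, Chst4, Itpripl2, Egfl7, Ckap4, Gng11 and Cxcl12, had 51 to 175 of their 121 to 180 UMIs in 1 cell. Their ratios, which depend on the prior count, ran from 5.55 to 6.12, and from -2.19 to 2.45 without the cells with Cdh5. Lowest were Tnfrsf9 (-2.79), Cmtm7 (-2.70), Ikzf2 (-2.55), the immunoglobulin gene Ighm (-2.53), the replication and division genes Pclaf (-2.46), H1f5 (-2.46) and Ube2c (-2.27), and Cd74 (-2.22). Of 5 B cell genes that could be compared, 4 were lower than in regulatory cells and none higher. Part of this count rests on few regulatory cells, as the cell highest for each gene held 41 of 57 H2-Aa, 49 of 63 H2-Ab1 and 80 of 199 Cd74 UMIs, and 16 of 134 Ighm UMIs. Of 11 cycling genes 9 were lower and none higher, with a median of -1.46.

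Interferon response and stress genes were past 2-fold against CD8 cells at a share near that of all genes, of which 3.38% were higher and 1.07% lower. Of 26 interferon-stimulated genes 18 had enough UMIs against CD8 cells, 1 was past 2-fold and higher, none lower, and the median was 0.27. Leaving out the cells with Cdh5, 1 of 16 was higher and 1, Rsad2, was lower. The higher gene in both, Ifi27l2a, was found in 330 conventional CD4 cells at 781 CPM (741 to 822), against 341 CPM in CD8 cells (1.19) and 1393 CPM in regulatory cells. Bst2, the gene of tetherin, stood at 297 CPM, and at 81.0 CPM without the 4 cells with Cdh5. None of the 10 immediate early and 8 heat shock genes was past 2-fold against CD8 cells. Against regulatory cells 2 of 10 interferon genes (Slfn1 and Irf7), 2 of 10 immediate early genes (Jun and Btg2) and 1 of 8 heat shock genes (Hspa1a) were higher and none was lower. In that comparison, leaving out the cells with Cdh5 gave 1 interferon gene higher (Slfn1) and 1 lower (Bst2) of 8, and Hspa1b joined Hspa1a. Of 15 cytokine receptors 13 had enough UMIs against CD8 cells, 1 was past 2-fold and higher (Il6ra, 57.2 against 26.2 CPM, 1.13) and none was lower. Against regulatory cells 3 of 12 were higher, the receptor genes Ifngr2 (1.84), Tgfbr2 (1.82) and Il6st (1.01), and 2 were lower, Il2rb (-1.40) and Il2ra (-2.09), with the same counts without the cells with Cdh5. Of 16 cycling genes 15 could be compared with CD8 cells, and 3 were higher, none lower, with a median of 0.76, while 5 were higher without the cells with Cdh5.

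Levels also varied with depth among the conventional CD4 cells. The 515 cells with fewer than 3 Cdh5 UMIs were divided by UMIs into 173 cells of 863 to 2354, 170 of 2356 to 3146 and 172 of 3150 to 20366. The naive list stood at 6575, 6262 and 3917 CPM in these sets, the activated list at 2142, 2202 and 4465 CPM, and the cycling list at 1281, 1116 and 3059 CPM. The deepest set was thus the one with the lowest naive and the highest activated and cycling levels. The part of depth in these levels was not tested.

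Clustering of the 519 cells without the rule genes gave 6 subclusters, numbered by size, which are a description since the same genes formed them. Subcluster 1 held 139 cells (26.8%, 23.0% to 30.8%), with Gpm6b, Hopx, Tnfsf8, Bhlhe40, Ikzf2, Eea1, Tnfrsf9 and Tnfrsf4 as leading genes. Tnfrsf4 stood there at 1024 CPM (936 to 1118), with a UMI in 108 of 139 cells, close to the 1251 CPM of the regulatory cells. Tnfsf8 stood at 804 CPM against 60.9 CPM in regulatory cells, and Penk at 622 CPM against 74.8. Ikzf2 was at 537 CPM and Ctla4 at 528 CPM, below the 983 and 725 CPM of regulatory cells. Of the 25 cells with Sostdc1, 23 lay in subcluster 1, as did 24 of the 28 with Penk and 29 of the 35 with Areg. Maf stood at 383 CPM, Izumo1r at 357 CPM and Icos at 908 CPM in it. Icos was spread more widely, with 115 of its 237 cells in subcluster 1.

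Traffic genes differed within that population as well. Ccr7 stood at 831 CPM in subcluster 1, in 74 of 139 cells, next to 698, 749, 868 and 542 CPM in subclusters 2 to 5, while S1pr1 was at 191 CPM and Lef1 at 93.3 CPM. The naive list stood at 2889 CPM in subcluster 1. Ccr7 and Tnfrsf4 were found together in 103 of the 519 cells, with Ccr7 alone in 246, Tnfrsf4 alone in 55 and neither in 115. Penk and Sostdc1 overlapped in 8 cells, with Penk alone in 20 and Sostdc1 alone in 17, whereas 22 of the 25 cells with Sostdc1 also had Tnfsf8.

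**Figure D4:**
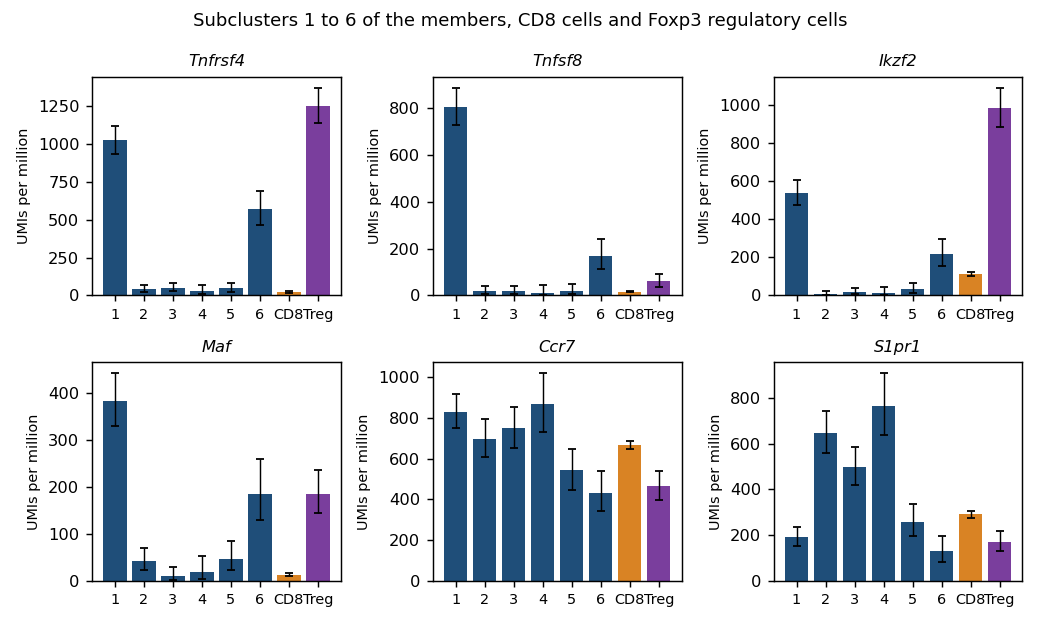
Levels in CPM of named genes in subclusters 1 to 6 of the conventional CD4 cells, with 95% Poisson intervals, next to CD8 and regulatory cells of the same lymph node; the 4 cells with at least 3 Cdh5 UMIs are left out of subcluster 6. Tnfrsf4 stands at 1024 in subcluster 1 and 1251 in regulatory cells, whereas Tnfsf8 stands at 804 in subcluster 1 and 60.9 in regulatory cells.

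Subclusters 2, 3 and 4, with 117, 94 and 74 cells, had the naive pattern. The naive list stood at 7397, 6120 and 8599 CPM in them, and the activated list at 1148, 999 and 1314 CPM. Subcluster 2 was led by Rflnb, Slfn1, Txk, Galnt6, Pja1, Mfsd6, Lef1 and Smad4, and subcluster 4 by Pde3b, Pik3cd, Rflnb, Kmt5b, Txk, Gimap4, Tubb2a and Slc6a6. S1pr1 stood at 647 CPM in subcluster 2, 500 CPM in 3 and 765 CPM in 4. Satb1 stood at 1808, 1522 and 2200 CPM, and S100a4 had 3, 1 and 2 UMIs in all. Subcluster 3 was led by Atp1b1, Gm8251, Pag1, Bcl2l11, Pde4d, Tubb2a, Cspp1 and Mef2d. The B cell genes stood at 796 CPM in subcluster 4, and between 162 and 614 CPM in the other subclusters. The myeloid and dendritic genes were also highest in subcluster 4, at 307 CPM (229 to 404, 51 UMIs), against 9.27 to 187 CPM in the other subclusters, and the part of either list in its pattern was not tested.

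Subcluster 5, with 72 cells, was led by Hspa1a, Hspa1b, Egr1, Nr4a1, Dnajb1, Jun, Fos and Gadd45b, genes of heat shock and of the immediate early response to stimulation. Heat shock genes stood at 9049 CPM in it and 4251 CPM in the other cells, and immediate early genes at 7148 and 3482 CPM. Hspa1a had 220 of its 246 UMIs in 27 cells of subcluster 5. Its naive list stood at 5317 CPM, and Cd69, an early activation receptor that holds cells in the node, at 357 CPM against 60.3 to 122 CPM in the others.

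Subcluster 6 held 23 cells at a median of 10356 UMIs, all 4 cells with Cdh5 among them, and was led by Pclaf, Mcm10, Cenps, H2ac4, Cby1, Cdca5, Stil and Neil3. The 16 cycling genes together stood at 6676 CPM in it, against 1128 CPM in the other cells. Without the 4 cells with Cdh5 the remaining 19 cells had the list at 10440 CPM (9977 to 10918). Mki67, a marker of dividing cells, had 95 of its 106 UMIs in 16 cells of it, and Top2a 152 of its 184 UMIs in 20 cells. In the 19 cells Mki67 had 72 UMIs in 13 cells and Top2a 116 in 17. The activated list stood at 12628 CPM in the 23 cells and at 9943 CPM in the 19, and the naive list at 1487 and 1992 CPM. Cycling transcripts were thus concentrated in this small and deep set.

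**Figure D5:**
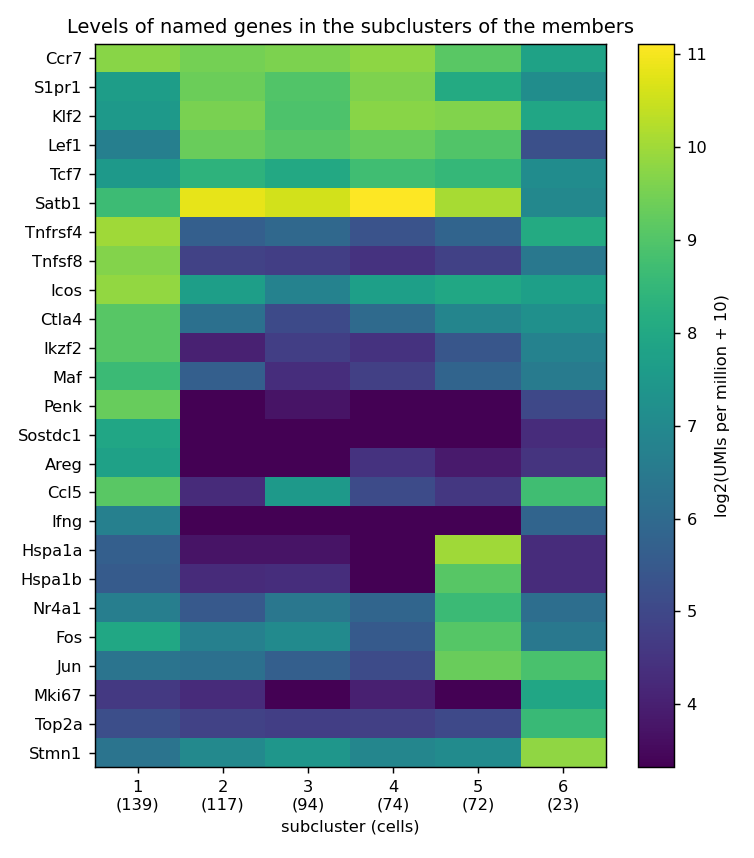
Levels of named genes, as log2 of CPM plus 10, in the 6 subclusters of the conventional CD4 cells, with brighter tiles for higher levels, the number of cells under each subcluster and all 519 cells included. Subcluster 1 (139 cells) is high for Tnfrsf4, Tnfsf8 and Icos, and subcluster 5 (72 cells) for Hspa1a.

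The division was not stable in number. At resolution 1.5 the cells gave 12 subclusters, and without the 4 cells with Cdh5 they gave 9. The cluster of highest Tnfrsf4 then held 79 cells, 77 of which were in subcluster 1. The subclusters therefore keep numbers rather than cell type names.

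In the CD3 cells with neither co-receptor, Tnfrsf4, Maf and Izumo1r lay between their CD4 and CD8 levels. Tnfrsf4 stood at 138 CPM, Maf at 65.1 CPM and Izumo1r at 60.7 CPM. Sostdc1 had 25 UMIs in 3 of these 1337 cells, 20 of them in 1 cell, and Penk 88 UMIs in 22 cells. Ccr7 stood at 649 CPM, next to 634 CPM in the conventional CD4 cells.

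The 40 primary tumour cells that passed the same rule held 120651 UMIs, a median of 1853 per cell. Their naive list stood at 961 CPM (794 to 1153) and their activated list at 12010 CPM, with no comparison made at this number of cells, and the tissue and the library cannot be told apart.

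Alox12, the gene of the lipoxygenase that the study followed in high endothelial venules, had 8 UMIs in 1 of the 519 cells, which was a cell with Cdh5. It had 0 UMIs in the other 515, with an upper limit taken here as 3 UMIs, or 1.81 CPM.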

How the data were processed

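Single-cell 3' RNA of 1 lymph node and 1 primary tumour library, each pooled from 6 mice, was analysed. The authors deposited raw UMI counts per gene and cell, which are whole numbers that were not normalized. Cell Ranger 5.0.0 is named per the file headers, while the submitters' processing notes give 2.1.1 and the study's reporting summary a later version than either, and the genome was GRCm38. The study methods removed genes found in few cells and ran a doublet caller, but whether this was done before deposit is not stated. Cells over the study's upper gene limit were still present, so that limit had not been applied, and 3 of the chosen cells exceed 6000 detected genes. The chosen cells and the gene lists were set with earlier results of these data known.

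UMI counts were summed over the cells of a population and divided by the summed UMIs (CPM), with exact Poisson 95% intervals, and shares have exact Clopper-Pearson 95% intervals. PCR duplicates are collapsed by UMI, and the intervals cover counting error only. Ratios used a prior count of 0.5 and genes with at least 100 UMIs in both populations together. Shares of cells were also computed with each cell thinned to 1000 UMIs. The regulatory population had to have at least 1 Foxp3 UMI, B cells at least 3 UMIs of Cd79a and Cd79b, and CD8 cells at least 1 Cd8a or Cd8b1 UMI and 0 Cd4 UMIs.

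Named genes were the 12 highest and 12 lowest ratios against CD8 cells, the 8 highest and 8 lowest against regulatory cells, the 10 most abundant genes, the 8 leading genes of each subcluster (a UMI in at least 25% of its cells), and members of 27 fixed lists. Rule genes, receptor variable and joining genes and mitochondrial genes were left out of the ranking. Subclusters came from 2000 variable genes, 20 components, 15 neighbours and the Leiden method at resolution 1.0 (scanpy 1.11.5, igraph 0.11.9, seed 1). Scrublet (expected rate 6%, 30 components) marked 0 lymph node cells and was taken to have failed, so no doublets were removed, and the 690 cells above the 94th percentile of its score, 5 of them chosen cells, were left out as an alternative. Intervals came from scipy 1.17.1 and tables from pandas 2.3.3, under python 3.11.15. The statistics were tested on simulated data. Gene positions came from an annotation of GRCm38. The planned comparison of lymph node with primary tumour cells was not made, with 40 cells. A few genes are not reported here.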

Additional observations from a re-analysis of the deposited data

How the results depend on the processing

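Of 73 alternative values, 46 stayed within the interval or within 1.5 times the count, 27 moved, and some orders turned. Against regulatory cells the 205 higher and 191 lower genes became 204 and 258 without the cells with at least 3 Cdh5 UMIs, 209 and 254 with at most 6000 genes, 169 and 178 with a CD3 minimum of 3, 198 and 205 with 0 Cd79a and Cd79b UMIs, and 168 and 239 as means of single cells. The naive list, below the activated list over all cells, lay above it with a CD3 minimum of 1 (4733 against 4530 CPM) or 3 (4668 against 4457), at most 6000 genes (5017 against 3562), 0 Cd79a and Cd79b UMIs (4815 against 3985), no cells with at least 3 Cdh5 UMIs (5106 against 3367) and single-cell means (5670 against 2847). The share of the library was 4.88% with a CD3 minimum of 1, 3.78% with 3 and 1.22% with a Cd4 minimum of 2. The naive list moved from 4634 CPM to 4733 with a CD3 minimum of 1, 3701 with a Cd4 minimum of 2, 5017 with at most 6000 genes, 4815 with 0 Cd79a and Cd79b UMIs, 5106 without the cells with at least 3 Cdh5 UMIs (chosen after seeing the data) and 5670 as a mean of single cells. Under the same settings the activated list moved from 4712 CPM to 4530, 4389, 3562, 3985, 3367 and 2847, and to 4457 with a CD3 minimum of 3. The genes past 2-fold against CD8 cells were 701 higher and 236 lower with a minimum of 20 UMIs, 129 and 104 centred on the median gene, and 149 lower with a Cd4 minimum of 2. Against regulatory cells they were 830 higher and 674 lower with 20 UMIs, and 49 and 39 with a Cd4 minimum of 2, where fewer cells leave fewer genes. The 6 subclusters became 12 at resolution 1.5 and 11 with 1000 variable genes. Leaving out the cells with the highest doublet scores moved none of the results recomputed. Low depth limits most single-cell statements, as Cd4 had 1 UMI in 377 cells. No paired analysis was possible because each tissue has 1 library and no comparison between the libraries was made.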
